A study of Mus musculus with 9 samples.

Results

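Doxorubicin given without a STING agonist was compared with control vehicle in the leukocytes of a mouse sarcoma. The comparison rested on 6 of the 9 libraries of the series, 3 after doxorubicin and 3 after vehicle, which were chosen by their labels alone. WEHI-164, a mouse fibrosarcoma line, was grafted under the skin of BALB/c mice. Doxorubicin was injected into the tumor at 5 mg/kg once a week, and control tumors received vehicle. All tumors were collected on day 7, and cells that carry CD45, the surface phosphatase encoded by Ptprc, were isolated with magnetic beads. The other 3 libraries came from tumors given the same dose of doxorubicin with 25 µg of ADU-S100. They entered the model for its estimate of the spread and are mentioned only where a gene is set beside them. The text of the study calls the libraries biological triplicates and does not say whether each came from a single mouse, so the p-values measure only the spread between these libraries.

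Doxorubicin is an anthracycline. It lodges in DNA, traps type II topoisomerases on broken strands and undergoes redox cycling. In a cell that carries functional p53, DNA breaks are sensed by kinases such as ATM, and p53 then raises genes that stop the cell cycle, repair DNA or start apoptosis. In a sorted tumor leukocyte sample, transcripts can also move because the mixture of macrophages, neutrophils, lymphocytes and attached stromal cells differs. Fewer cells of a type and less RNA per cell cannot be told apart in such bulk samples.

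The 6 libraries held 50110494 to 56405228 counts with doxorubicin and 52909751 to 61352118 counts in control. Ptprc was at 383, 360 and 409 CPM (reads counted in a gene, scaled to an equal size of all libraries) in doxorubicin replicates 1 to 3 and at 551, 303 and 376 CPM in control replicates 1 to 3. Macrophage transcripts were abundant in every library, with Lyz2, which encodes lysozyme, at 12425, 12096 and 12154 CPM with doxorubicin and 12808, 12742 and 9657 CPM in control. Libraries of 1 group differed in stromal and mitochondrial RNA. The mean log2 CPM of 32 genes of fibroblasts and sarcoma cells was 5.20, 3.23 and 4.96 with doxorubicin and 3.26, 5.93 and 3.67 in control. Mitochondrially encoded RNA took 6.91%, 1.26% and 2.05% of the counts with doxorubicin and 2.27%, 7.59% and 4.35% in control. Doxorubicin replicate 1 and control replicate 2 were therefore the highest of their groups in both.

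Across all genes the difference between the groups was small beside the spread of the replicates. Of 16373 genes tested with edgeR's quasi-likelihood test, 0 (0.0%) had an adjusted p under 0.05, and the smallest adjusted p was 1. At an unadjusted p under 0.05 there were 116 genes (0.708%). DESeq2 called 2 genes (0.0122%) at an adjusted p under 0.05, and limma-voom called 0. The paper selects genes with over 2-fold change whose unadjusted p lies under 0.05, named the study thresholds here. By edgeR they called 59 genes higher (0.36%) and 15 genes lower (0.0916%) with doxorubicin, or 0.452% of all genes in either direction. A gene described below as called passed these thresholds only. Of all genes tested, 48.9% had a positive log2 fold change, and the median log2 fold change was -0.01. In 289 genes (1.77%) all doxorubicin libraries lay above all control libraries, and in 430 genes (2.63%) they lay below, together 4.39%. Of all genes tested, 11.5%, 20.6% and 11.8% were highest in doxorubicin replicates 1 to 3. In control replicates 1 to 3 the shares were 19.5%, 19.3% and 17.4%. Lowest in these libraries were 19.0%, 19.5% and 13.3% with doxorubicin and 16.6%, 15.4% and 16.1% in control. Counts of list members highest or lowest in a library stand beside these shares.

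Many of the calls were lost when 1 library was left out. An omission also leaves fewer libraries in a group, so a call can be lost though its fold change stays as large. Of the 59 higher genes, 40 had their highest value in doxorubicin replicate 3, 11 in doxorubicin replicate 1 and 8 in doxorubicin replicate 2. In 33 of the 59 the groups did not overlap, and 25 had a mean under 1 CPM. Of the 15 lower genes, 11 did not overlap and 11 had a mean under 1 CPM. When doxorubicin replicate 3 was left out, 12 of the 59 higher and 6 of the 15 lower genes kept their call, and the totals became 17 higher and 27 lower genes. Without doxorubicin replicate 1 the totals were 112 higher and 99 lower genes, of which 38 and 12 were among the calls on all libraries. Without control replicate 1 they were 152 and 17. A total of 12 genes kept their call in all 6 omissions. These were Zan, 5430400D12Rik, Slc17a6, Adamts4, Vwa1, Gm8810 and Gm44504, all higher, and Igf1, 5033417F24Rik, Adam32, Gm38137 and Gm43403, all lower. Igf1, Vwa1 and Adamts4 were the only ones of the 12 that were above 1 CPM in every library.

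**Figure D1:**
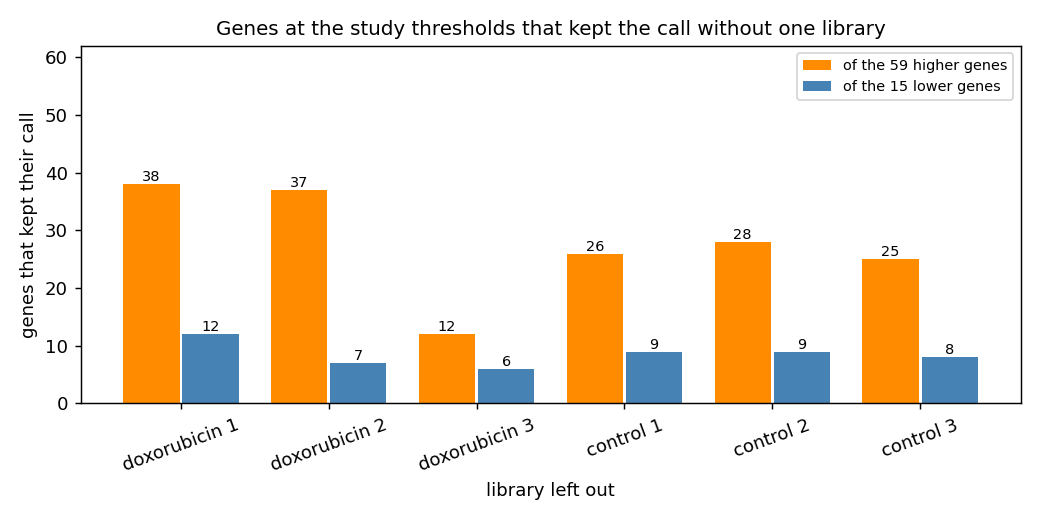
Number of genes (vertical axis) that kept their call at the study thresholds when 1 library (horizontal axis) was left out, for the 59 higher genes (orange) and the 15 lower genes (blue). Without doxorubicin replicate 3 only 12 higher genes were kept, and without doxorubicin replicate 1 there were 38.

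Igf1 had the smallest unadjusted p of all genes tested. It encodes insulin-like growth factor 1, which tissue macrophages secrete during wound repair and which fibroblasts also make. It lies on chromosome 10 of GRCm38 (mm10), at 87858265 to 87937047. Its level was 7.49, 5.65 and 5.65 CPM with doxorubicin and 20.3, 21.5 and 19.5 CPM in control. All doxorubicin libraries were low and close together, and the groups were far from overlapping. The means were 6.26 ± 1.07 CPM with doxorubicin and 20.4 ± 0.994 CPM in control (SD, n = 3 each), a level 3.26-fold lower with doxorubicin. The log2 fold change was -1.70 ± 0.32 (SE), with an unadjusted p of 0.000446 in edgeR, where the adjusted p was 1. Values after ± are standard errors where they follow a log2 fold change. DESeq2 gave -1.70 with a standard error of 0.34 and an adjusted p of 0.00488. Leaving out any 1 of the 6 libraries gave -1.85 to -1.64. The difference was also there without the 2 libraries of the highest fibroblast means (-1.82) and with the fibroblast mean as a covariate (-1.73), both tried after the data were seen. With doxorubicin + ADU-S100, Igf1 was at 7.94, 19.3 and 15.8 CPM.

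Cd163, the macrophage scavenger receptor for haemoglobin and haptoglobin complexes, was also called lower (chromosome 6, 124304636 to 124330529). It was at 11.3, 10.7 and 1.98 CPM with doxorubicin and 41.6, 11.4 and 23.4 CPM in control. The lowest control library lay just above the highest doxorubicin library, so the groups were only barely apart. The log2 fold change was -1.67 ± 0.69 (SE, edgeR, unadjusted p = 0.0391). The call was lost without control replicate 1 (-1.12), control replicate 3 (-1.70), doxorubicin replicate 2 (-1.94) or doxorubicin replicate 3 (-1.21). Other macrophage genes did not follow as a group. Of 24 macrophage genes tested, 13 had a positive log2 fold change and the median was 0.05. Cd163 was the only one of the 24 called, against 0.452% of all genes called in either direction. Vsig4, a complement receptor of resident macrophages, had 10.8, 6.17 and 1.82 CPM with doxorubicin and 15.5, 8.35 and 13 CPM in control, which overlapped. Adgre1, which encodes F4/80, had a log2 fold change of 0.30 ± 0.29, and Mertk, the receptor for apoptotic cells, of -0.39 ± 0.42. Arg1, which encodes the arginase of alternatively activated macrophages, stood at 8535 CPM in doxorubicin replicate 2 alone. It was at 2186 and 1844 CPM in the other doxorubicin libraries and at 2767, 2683 and 2729 CPM in control. Igf1 and Cd163 were named by the size of their fold change, and Vsig4, Adgre1, Mertk, Lyz2, Vwa1 and Adamts4 were chosen after their values were seen.

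**Figure D2:**
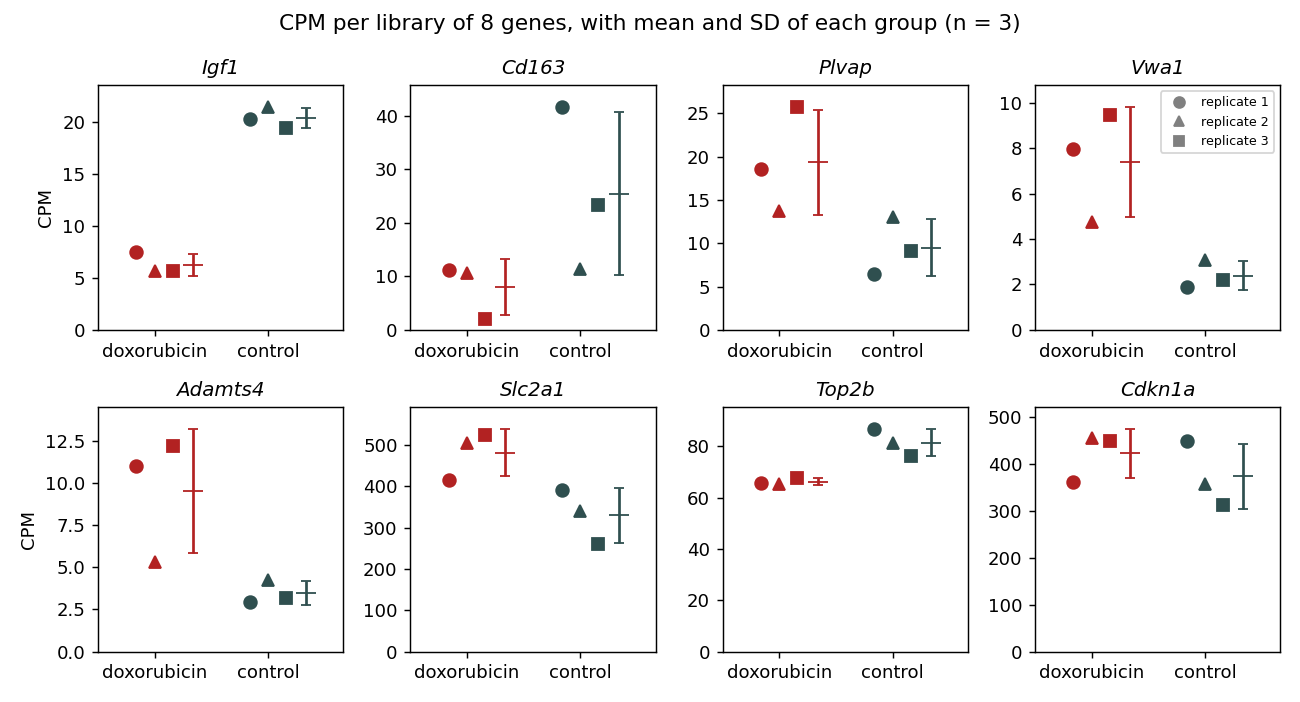
CPM per library (vertical axes, starting at 0) of 8 genes, with doxorubicin (red) left of control (dark), marker shape for the replicate number and a bar for the mean and SD (n = 3). Igf1 is low in all doxorubicin libraries, Vwa1 and Adamts4 are high in all of them, and Cdkn1a overlaps between the groups.

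Genes of endothelial cells, which line blood vessels, held the most called members of any cell type list by number, 7 of 41, although the 4 called of 26 T cell genes were a like share. Of 41 genes tested of 43, 32 had a positive log2 fold change, against 48.9% of all genes, and the median was 0.51. A total of 6 were called higher and 1 lower, against 0.36% and 0.0916% of all genes. Called or not, 6 of the 41 lay higher without overlap and 1 lower, against 1.77% and 2.63% of all genes. Plvap encodes the protein of the diaphragms of fenestrated endothelium (chromosome 8, 71497753 to 71511806). It was at 18.6, 13.7 and 25.7 CPM with doxorubicin and 6.40, 13 and 9.06 CPM in control. The groups did not overlap, but doxorubicin replicate 2 and control replicate 2 were close. The log2 fold change was 1.03 ± 0.32 (SE, edgeR, unadjusted p = 0.0101). Its call was lost without control replicate 1 (0.81) or doxorubicin replicate 3 (0.77).

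The other called endothelial genes were lower in level. Myct1, a transmembrane protein of endothelial cells, was at 2.27, 1.22 and 2.99 CPM with doxorubicin and 0.603, 0.996 and 0.850 CPM in control, a log2 fold change of 1.40 ± 0.45, and lost its call only without doxorubicin replicate 3. Emcn, the sialomucin endomucin of veins and capillaries, was at 3.62, 4.27 and 7.81 CPM with doxorubicin and 1.31, 3.34 and 2.77 CPM in control. Flt4, the receptor for VEGF-C, was at 2.55, 1.80 and 3.15 CPM with doxorubicin and 1.54, 0.858 and 1.16 CPM in control. These 3 genes did not overlap between the groups. Robo4, a guidance receptor of vessels (log2 fold change 1.06), and Mmrn2, an extracellular matrix protein of vessels (1.19), were called but overlapped. Flt4 lost its call without control replicate 2 or doxorubicin replicate 3. Emcn lost it without control replicate 1, control replicate 3 or doxorubicin replicate 3, and Robo4 and Mmrn2 lost it without any of these or doxorubicin replicate 1. Emcn, Flt4, Robo4 and Mmrn2 were chosen after their values were seen.

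Pecam1, which encodes the junctional protein CD31, was at 26.3, 31.7 and 44.3 CPM with doxorubicin and 22.0, 22.8 and 20.1 CPM in control, without overlap. Its log2 fold change of 0.65 ± 0.24 (unadjusted p = 0.023 in edgeR) was under the fold threshold, and some leukocytes also carry CD31. Neither Cdh5, which encodes VE-cadherin, nor Kdr, the main receptor for VEGF-A, was called. Cdh5 was at 19.0, 9.58 and 25.7 CPM with doxorubicin and 9.82, 14.2 and 10.6 CPM in control. Kdr was at 18.5, 8.38 and 18.3 CPM with doxorubicin and 12.9, 11.5 and 9.89 CPM in control. In both genes doxorubicin replicates 1 and 3 were above, and doxorubicin replicate 2 was below, every control library. The called lower member was Tal1, a transcription factor of blood and mast cell lineages as well as of endothelium. It was at 2.98, 3.05 and 2.33 CPM with doxorubicin and 4.57, 4.89 and 7.41 CPM in control, a log2 fold change of -1.01 ± 0.31, and its call was lost without control replicate 3 or doxorubicin replicate 3.

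Several called genes outside the endothelial list are known from vessels and perivascular cells, and all were chosen after their values were seen. Vwa1, a matrix protein of basement membranes (chromosome 4, 155768495 to 155774693), was at 7.97, 4.75 and 9.46 CPM with doxorubicin and 1.88, 3.09 and 2.18 CPM in control. Adamts4, a protease of proteoglycans (chromosome 1, 171250129 to 171262267), was at 11, 5.34 and 12.2 CPM with doxorubicin and 2.94, 4.27 and 3.18 CPM in control. Neither overlapped, and both were lowest of the doxorubicin group in replicate 2. The log2 fold changes were 1.63 ± 0.41 for Vwa1 (omissions 1.41 to 1.87) and 1.46 ± 0.41 for Adamts4 (omissions 1.24 to 1.74). Dll4, a Notch ligand of sprouting vessels (1.26), and Igfbp3, a carrier of insulin-like growth factors (1.28), did not overlap, whereas Mcam, the adhesion molecule CD146 of vessels and pericytes (1.15), did. Dll4, Igfbp3 and Mcam each lost the call without doxorubicin replicate 1 or doxorubicin replicate 3, among others. The list of pericytes and smooth muscle did not follow. Of its 15 genes tested, 10 were negative and 5 positive, with a median of -0.14. Its 1 called gene was Mcam, higher, against 0.36% of all genes. Without overlap, 1 of the 15 lay higher and 1 lower, against 1.77% and 2.63% of all genes.

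The endothelial list had mean log2 CPM of 2.53, 1.98 and 2.76 with doxorubicin and 1.68, 2.5 and 1.88 in control, so the list mean itself overlapped. Of its 41 genes, 20 were highest in doxorubicin replicate 3 and 20 were lowest in control replicate 1. The list median lay between 0.32 (without doxorubicin replicate 3) and 0.85 (without control replicate 2). Of 32 fibroblast genes, 9 were positive and 0 were called. Their median of -0.16 turned to 1.39 without control replicate 2 and to 0.22 without doxorubicin replicate 2, and without the 2 libraries of the highest fibroblast means it was 1.04. Without the same 2 libraries the endothelial median was 0.78, and with the fibroblast mean as a covariate it was 0.50. Cells of vessels are not expected in a sort for CD45, and the part of retained stromal cells in these values was not tested.

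Genes that p53 activates did not differ as a group. Of 44 tested of 45, 23 were positive, the median log2 fold change was 0.02, and 0 were called or had an unadjusted p under 0.05 in edgeR. Cdkn1a encodes p21, the inhibitor of cyclin-dependent kinases that is the best known p53 target (chromosome 17, 29090979 to 29100722). It was at 363, 456 and 450 CPM with doxorubicin and 450, 359 and 314 CPM in control. The groups overlapped, and the log2 fold change was 0.18 ± 0.35 (SE). Mdm2, the ubiquitin ligase that limits p53, had 0.16 ± 0.33. Ccng1, cyclin G1, had 0.09 ± 0.26, and Trp53 itself had -0.01 ± 0.34. With errors of this size, small differences in either direction could not be told from the spread.

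Single p53 targets had values of either sign. Bax, which permeabilizes mitochondria, was at 90.4, 151 and 122 CPM with doxorubicin and 87.2, 86.3 and 119 CPM in control (log2 fold change 0.31). Bbc3, which encodes PUMA, had 0.41 ± 0.27, Gadd45a, a growth arrest gene, had 0.48 ± 0.37 and Ddit4, an inhibitor of mTORC1, had 0.39 ± 0.26. Sesn1, the stress protein sestrin 1, had -0.34 ± 0.26. Gdf15, a stress cytokine, had 5.35, 2.37 and 2.03 CPM with doxorubicin and 2.46, 1.49 and 3.72 CPM in control. Phlda3, an inhibitor of AKT, had a log2 fold change of 0.29 ± 0.63 (SE). The 1 member without overlap was Perp, a desmosome protein, at 0.455, 0.213 and 0.38 CPM with doxorubicin and 0.159, 0 and 0.0924 CPM in control. It was chosen after its values were seen, and its unadjusted p was 0.277 in edgeR. Of all genes, 1.77% lay higher without overlap. The median of the list stayed between -0.03 and 0.08 when each library was left out.

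Genes that sense or repair DNA damage were mostly a little lower. Of 55 tested, 44 had a negative log2 fold change and 11 a positive one, against 48.9% positive among all genes. The median was -0.14 and lay between -0.17 and -0.11 in the 6 omissions. None reached an unadjusted p under 0.05 in edgeR (0 of 55) and 0 were called. Clspn encodes claspin, the adaptor that couples ATR to CHK1 at stalled replication forks. It was at 17.9, 17.4 and 12.3 CPM with doxorubicin and 24, 19.1 and 22.8 CPM in control, without overlap, and its log2 fold change was -0.47 ± 0.26. Without overlap were also Rnf168, a ubiquitin ligase at breaks (-0.29), Mre11a, a nuclease of the break-sensing complex (-0.21), and Tdp1, which removes trapped topoisomerase I (-0.12 ± 0.27), all 3 chosen after their values were seen. In all, 4 of the 55 genes lay lower without overlap and 0 higher, against 2.63% and 1.77% of all genes. The kinase genes Atm (-0.40 ± 0.36) and Chek1 (-0.38 ± 0.45) overlapped. Mdc1, a scaffold at breaks, had -0.47 ± 0.30, Fancm, a fork translocase, -0.45 ± 0.27 and Rad54l -0.32 ± 0.21. Parp1, among the highest members in level, was at 99.3, 108 and 113 CPM with doxorubicin and 111, 112 and 111 CPM in control.

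The 3 topoisomerase genes of the list had lower means after doxorubicin. Top2b, the isoform of resting cells, was at 65.6, 65.2 and 67.8 CPM with doxorubicin and 86.8, 81.4 and 76.2 CPM in control. Top1 was at 65.1, 58.3 and 60.9 CPM with doxorubicin and 97.2, 86.0 and 70.4 CPM in control. In both genes every doxorubicin library lay below every control library. The log2 fold changes were -0.30 ± 0.18 for Top2b (unadjusted p = 0.125 in edgeR) and -0.46 ± 0.24 for Top1 (unadjusted p = 0.0906), so neither passed a threshold. Top2a, the isoform of dividing cells, was at 215, 168 and 146 CPM with doxorubicin and 250, 260 and 162 CPM in control, which overlapped. The genes of the efflux pump P-glycoprotein, which carries doxorubicin out of cells, were not called. Abcb1a had a log2 fold change of -0.12 ± 0.39 and Abcb1b of -0.21 ± 0.23. Por, a reductase that can reduce doxorubicin, had 0.47 ± 0.24. Of 21 genes of targets, efflux and reduction tested of 23, 11 were negative and the median was -0.01. Lower without overlap were 3 of the 21 and higher 0, against 2.63% and 1.77% of all genes.

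**Figure D3:**
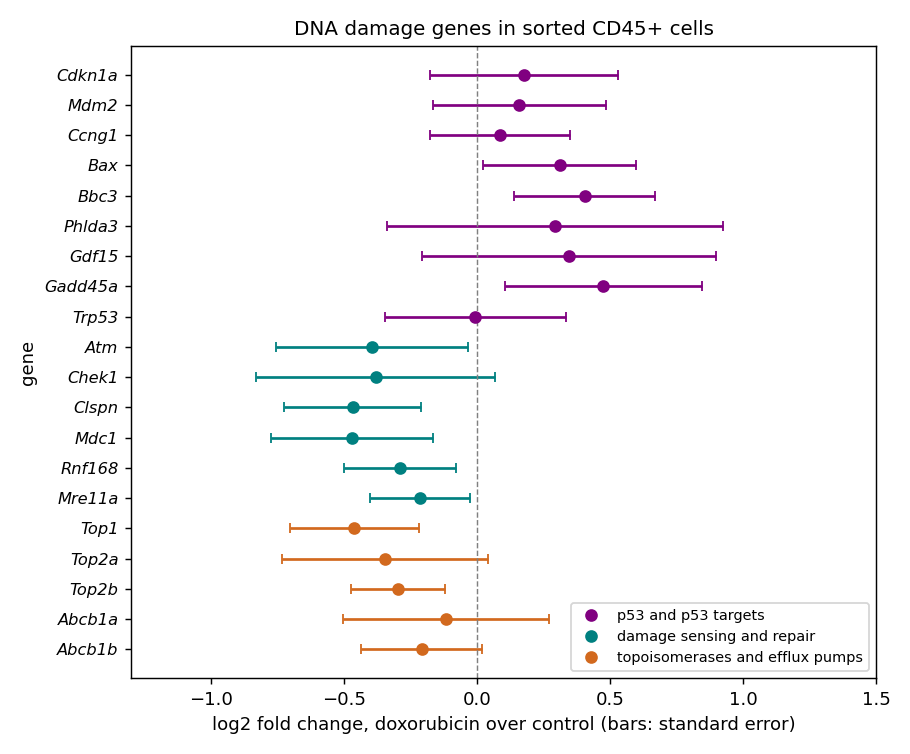
Log2 fold change, doxorubicin over control (horizontal axis), with its standard error for p53 and 8 of its targets (purple), 6 genes of damage sensing and repair (green) and 5 genes of topoisomerases and efflux pumps (orange). The 8 targets shown lie right of 0 by up to 0.48, although 21 of the 44 targets tested had a negative value, Trp53 lies at -0.01, and the other genes shown lie left of 0, at the lowest -0.47.

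Apoptosis regulators and the cell cycle were examined as further readouts of a cytotoxic drug. Of 29 Bcl2 family and caspase genes tested of 30, 18 were positive with a median of 0.05. Bcl2l1, which encodes the survival protein BCL-XL, had 0.30 ± 0.26 and Mcl1 had -0.14 ± 0.32. Xiap, a caspase inhibitor, lay lower without overlap, at 73.0, 56.3 and 72.1 CPM with doxorubicin and 98.6, 82.3 and 74.0 CPM in control. Of 40 genes of the cell cycle and DNA replication, 35 were negative with a median of -0.17, and 24 of the 40 were lowest in doxorubicin replicate 3 while 23 were highest in control replicate 2. Mki67, the proliferation antigen, was at 176, 95.9 and 75.9 CPM with doxorubicin and 221, 175 and 183 CPM in control. Doxorubicin replicate 1 alone lay within the control range. The log2 fold change was -0.73 ± 0.33 (SE, edgeR, unadjusted p = 0.0507), and without doxorubicin replicate 1 it was -1.17 (unadjusted p = 0.00263). Nusap1, a spindle protein, was at 48.5, 50.9 and 46.5 CPM with doxorubicin and 62.3, 63.9 and 63.4 CPM in control, without overlap (-0.38 ± 0.25). Xiap and Nusap1 were each the only member of their list without overlap, and 2.63% of all genes lay lower without overlap. Cenpe, a kinetochore motor, had -0.50 ± 0.29 and Pcna, the sliding clamp, -0.10 ± 0.21.

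Nearly all genes of glycolysis and the hypoxia response had a slightly positive log2 fold change, though not every doxorubicin library was higher. Hypoxia-inducible factors bind a short core in promoters and raise glucose uptake, the glycolytic enzymes and lactate export. Of 38 genes tested, 35 had a positive log2 fold change, against 48.9% of all genes, and the median was 0.28 (0.20 to 0.35 in the 6 omissions). The list means were 7.33, 7.58 and 7.56 log2 CPM with doxorubicin and 7.39, 7.24 and 7.05 log2 CPM in control. They overlapped, since doxorubicin replicate 1 lay below control replicate 1. None was called (0 of 38), and 1 had an unadjusted p under 0.05, against 0.708% of all genes. That gene was Slc2a1, which encodes the glucose transporter GLUT1. Upstream windows of 250 bases are shown for Slc2a1 and for 2 enzymes of the list, Pgk1 (phosphoglycerate kinase) and Pfkl (phosphofructokinase), since their starts carry the core. The sequences are from RefSeq, build GRCm38.p6, read in the direction of the gene, with matches to ACGTG or GCGTG on either strand in capitals (CACGT and CACGC are the same letters on the other strand).
Slc2a1, chr4:119108495-119108744, plus strand: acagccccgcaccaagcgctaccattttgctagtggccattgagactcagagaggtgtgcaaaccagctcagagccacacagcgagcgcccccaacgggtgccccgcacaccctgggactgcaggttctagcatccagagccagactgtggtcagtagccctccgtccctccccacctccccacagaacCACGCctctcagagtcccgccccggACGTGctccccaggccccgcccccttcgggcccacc
Pgk1, chrX:106186850-106187099, plus strand: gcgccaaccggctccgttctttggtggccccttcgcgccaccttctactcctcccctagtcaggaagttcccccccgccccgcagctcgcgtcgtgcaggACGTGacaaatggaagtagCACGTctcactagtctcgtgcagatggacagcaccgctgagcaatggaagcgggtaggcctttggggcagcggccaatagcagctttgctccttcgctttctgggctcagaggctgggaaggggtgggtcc
Pfkl, chr10:78009808-78010057, minus strand: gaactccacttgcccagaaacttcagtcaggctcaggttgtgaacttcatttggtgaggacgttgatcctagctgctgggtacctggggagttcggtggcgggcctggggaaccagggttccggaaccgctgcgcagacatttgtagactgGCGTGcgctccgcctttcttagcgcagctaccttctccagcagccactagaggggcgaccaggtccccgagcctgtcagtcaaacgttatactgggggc

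Of 54 promoters of 35 genes of the list found in RefSeq, 77.8% held at least 1 such match in these 250 bases, against 52.5% of 15019 promoters of 11805 tested genes. Of 28 promoters of 23 endothelial genes, 32.1% held one, and of 50 promoters of 40 called higher genes, 36.0% did. The list was chosen for the response whose factors bind this core, so its share does not bear on doxorubicin. A match is only a run of letters and was not tied to binding or to these values. Slc2a1 was at 416, 504 and 523 CPM with doxorubicin and 390, 339 and 259 CPM in control, without overlap, a log2 fold change of 0.55 ± 0.22 (unadjusted p = 0.0318 in edgeR). Its lowest doxorubicin and highest control library were close, and its unadjusted p was under 0.05 only without control replicate 1 or doxorubicin replicate 1 among the 6 omissions. Slc16a3, the lactate exporter MCT4, was at 291, 369 and 299 CPM with doxorubicin and 282, 183 and 221 CPM in control, and Ndrg1, a hypoxia-induced gene, at 563, 571 and 659 CPM with doxorubicin and 498, 549 and 392 CPM in control. Both separated the groups, as did Adm, the peptide hormone adrenomedullin (0.31 ± 0.42), and all 3 were chosen after their values were seen. With Slc2a1, 4 of the 38 genes lay higher without overlap and 0 lower, against 1.77% and 2.63% of all genes. Pfkl (0.42 ± 0.20) and Pgk1 (0.41 ± 0.26) overlapped, as did Tpi1 (triose phosphate isomerase, 0.38) and Ldha (lactate dehydrogenase, 0.37). Vegfa had 0.11 ± 0.29. Doxorubicin replicates 2 and 3 held the highest value of 15 and 12 of the 38 genes, and control replicate 3 the lowest of 20.

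Respiration genes followed single libraries rather than the groups. Of 49 nuclear genes of oxidative phosphorylation, 37 were positive with a median of 0.08, yet 40 were highest in doxorubicin replicate 2 and 40 were lowest in doxorubicin replicate 1. The median became -0.20 without doxorubicin replicate 2 and 0.31 without control replicate 3. Atp5b, a subunit of ATP synthase, was at 667, 987 and 883 CPM with doxorubicin and 759, 811 and 706 CPM in control. The small subunit gene Atp5k was at 36.6, 91.4 and 52.2 CPM with doxorubicin and 38.3, 38.1 and 60.8 CPM in control, and Ndufv1 of complex I had a log2 fold change of 0.21 ± 0.23. All 15 mitochondrially encoded genes tested were negative with a median of -0.58, and none was called. COX1, a subunit of cytochrome oxidase, was at 24431, 4131 and 6214 CPM with doxorubicin and 8179, 26113 and 14704 CPM in control. ND5, a subunit of complex I, had 2538, 336 and 662 CPM with doxorubicin and 1148, 3435 and 1398 CPM in control. The median of the list was -0.03 without control replicate 2 and -1.41 without doxorubicin replicate 1.

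The remaining metabolic lists had medians between -0.06 and 0.10. Cd163, listed with iron and heme, was their only called member, against 0.452% called of all genes. The medians were -0.04 for the tricarboxylic acid cycle (20 genes), 0.01 for fatty acid oxidation and lipid storage (35 genes), 0.08 for cholesterol and fatty acid synthesis (33 genes) and -0.06 for liver X receptor targets (13 genes). They were -0.05 for nucleotide synthesis (30 genes), 0.10 for the pentose phosphate pathway (8 genes), 0.06 for ATF4 targets and amino acid metabolism (32 genes), 0.06 for NRF2 and antioxidant genes (27 genes) and -0.01 for iron, heme and ferritin (21 genes). A few members separated the groups without being called. With Cd163 counted, 2 higher and 1 lower of 33 genes of cholesterol and fatty acid synthesis did not overlap. It was 1 and 1 of 35 for fatty acid oxidation, and 0 and 2 of 27 for antioxidant genes. For nucleotide synthesis it was 0 and 1 of 30, and for iron and heme 1 and 1 of 21. The other lists had none. Of all genes, 4.39% did not overlap in either direction. Srebf1, a master regulator of lipid synthesis, was at 71.0, 73.9 and 70.8 CPM with doxorubicin and 59.7, 55.8 and 46.8 CPM in control (log2 fold change 0.41 ± 0.21). Fads2, a fatty acid desaturase, was at 10.6, 10.6 and 11.5 CPM with doxorubicin and 5.51, 7.46 and 8.24 CPM in control. Both were tightly grouped after doxorubicin. Of the antioxidant genes, Cat, which encodes catalase, was at 78.9, 81.9 and 82.7 CPM with doxorubicin and 104, 88.9 and 99.7 CPM in control, and Gclc, the rate-limiting enzyme of glutathione synthesis, had a log2 fold change of -0.31 ± 0.19. Both lay lower in all doxorubicin libraries. Prps2, of nucleotide synthesis, was lower (-0.24 ± 0.20) and Acadvl, of fatty acid oxidation, higher (0.18 ± 0.14) without overlap. Ogdh (-0.19), Hmox1 (-0.40) and the iron exporter Slc40a1 (-0.96) overlapped and were not called.

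**Figure D4:**
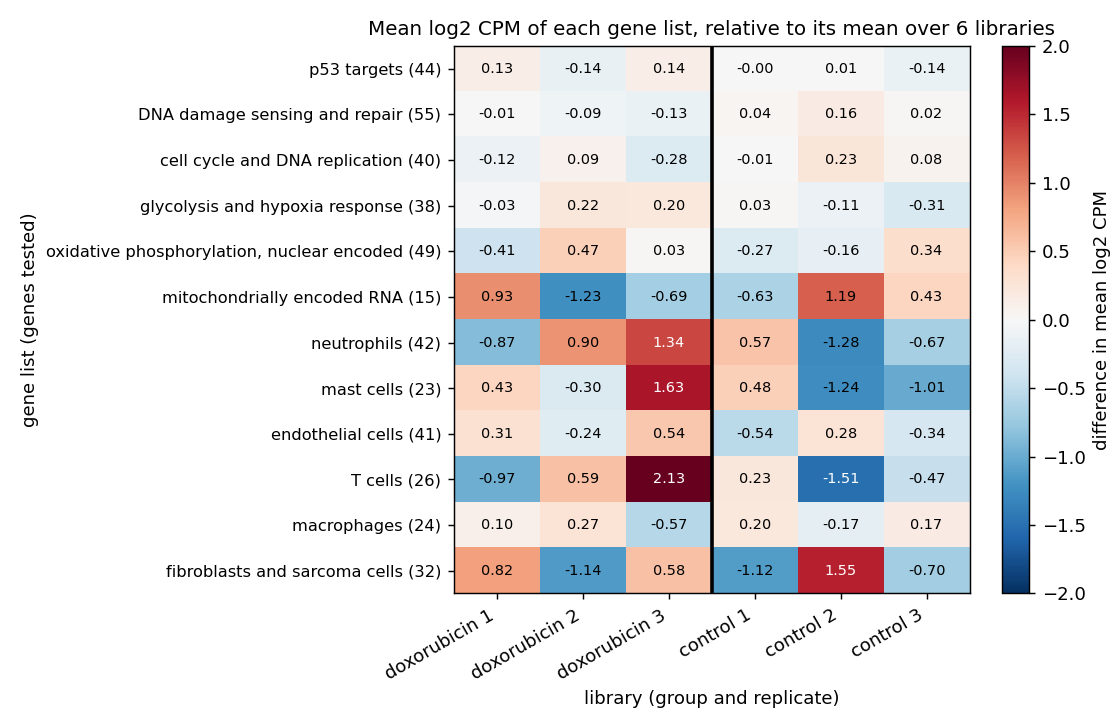
Mean log2 CPM of 12 gene lists (vertical axis, with the number of genes tested) in each library (horizontal axis, doxorubicin left of the line and control right of it), relative to the mean over the 6 libraries. The T cell, mast cell and neutrophil rows peak in doxorubicin replicate 3, the fibroblast row in control replicate 2, and the nuclear respiration row in doxorubicin replicate 2.

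Neutrophil genes were higher in 2 of the 3 doxorubicin libraries. Neutrophils carry the calgranulins S100a8 and S100a9, and their granule enzymes are transcribed in precursors. Of 42 genes tested of 47, 38 had a positive log2 fold change and the median was 0.96. The list means were 1.80, 3.57 and 4.01 log2 CPM with doxorubicin and 3.24, 1.40 and 2.00 log2 CPM in control. Doxorubicin replicate 1 was below 2 of the control libraries, and control replicate 1 was not far below doxorubicin replicate 2. Of the 42 genes, 25 were highest in doxorubicin replicate 3 and 10 in doxorubicin replicate 2. The median was 0.18 without doxorubicin replicate 3 and 1.56 without control replicate 1. S100a8 was at 6.71, 49.5 and 113 CPM with doxorubicin and 50.2, 7.49 and 19.6 CPM in control. S100a9 was at 10.5, 63.7 and 274 CPM with doxorubicin and 97.6, 4.52 and 24.9 CPM in control. Their log2 fold changes of 1.13 and 1.46 had standard errors of 1.09 and 1.34.

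Receptors of mature neutrophils were highest in doxorubicin replicate 3. Csf3r, the receptor for G-CSF, was at 47.5, 40.9 and 112 CPM with doxorubicin and 75.6, 22.9 and 35.0 CPM in control. Cxcr2, a chemokine receptor chosen after its values were seen, was at 1.04, 4.37 and 23.7 CPM with doxorubicin and 9.02, 0.306 and 1.02 CPM in control. G0s2, a lipase inhibitor from the list of lipid storage, was at 2.86, 19.4 and 84.6 CPM with doxorubicin and 26.7, 1.59 and 3.73 CPM in control. All 3 overlapped. Csf3r was lowest of its group in doxorubicin replicate 2, whereas Cxcr2 and G0s2 were lowest in doxorubicin replicate 1. Of the 42 neutrophil genes tested, 2 were called higher, Mpo and Padi4, against 0.36% of all genes. Padi4, which citrullinates histones in neutrophil traps, was at 1.6, 9.43 and 1.85 CPM with doxorubicin and 1.65, 1.58 and 0.351 CPM in control, so its log2 fold change of 1.84 ± 0.81 came from doxorubicin replicate 2 and was 0.53 without it. Prtn3, a granule protease, likewise stood at 6.87 CPM in doxorubicin replicate 2, with 0.4 and 1.22 CPM in the other doxorubicin libraries and at most 0.904 CPM in control. Ltf, which encodes lactoferrin, was at 0.436, 0.679 and 1.21 CPM with doxorubicin and 0.159, 0 and 0.333 CPM in control. Mpo, myeloperoxidase, had 4, 13 and 16 counts with doxorubicin and 0, 0 and 0 in control, at least 11.6-fold higher when control is set to 3 counts over the group. Its call was lost in 5 of the 6 omissions, without any control library or doxorubicin replicates 2 or 3. Its edgeR log2 fold change was nearly the same without a control library, 6.49 to 6.53, against 6.52 with all libraries. The 5 genes not tested had at most 24 counts in a library, with Ly6g at 3, 6 and 16 counts with doxorubicin and 11, 0 and 0 in control, and Elane at 0, 0 and 4 counts with doxorubicin and 14, 0 and 0 in control.

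Mast cell genes pointed the same way and were also led by doxorubicin replicate 3. Mast cells store tryptases, chymases and carboxypeptidase A3 in their granules. Of 23 genes tested of 31, 21 were positive with a median log2 fold change of 1.18, and 0 were called or had an unadjusted p under 0.05 in edgeR. The list means were 0.42, -0.31 and 1.62 log2 CPM with doxorubicin and 0.47, -1.25 and -1.02 log2 CPM in control. Of the 23 genes, 18 were highest in doxorubicin replicate 3. The median was 0.53 without that library and 2.57 without control replicate 1. Tpsb2, a tryptase, was at 7.80, 5.84 and 17.2 CPM with doxorubicin and 6.79, 0.414 and 2.01 CPM in control. Cma1, a chymase, was at 2.75, 3.51 and 7.75 CPM with doxorubicin and 3.60, 0.230 and 1.39 CPM in control. In both genes control replicate 1 lay among the doxorubicin libraries.

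Cpa3, carboxypeptidase A3, was at 2.00, 2.27 and 9.28 CPM with doxorubicin and 3.72, 0.153 and 0.573 CPM in control, and Mcpt4, another chymase, at 4.29, 2.72 and 11 CPM with doxorubicin and 4.11, 0.383 and 1.26 CPM in control. The log2 fold changes were 1.70 ± 1.16 for the tryptase Tpsab1, 3.22 ± 2.1 for Mcpt1 and 2.18 ± 1.41 for Mcpt2. Tpsab1 was chosen after its values were seen. The tryptases and the chymases are families of related genes, and whether reads were shared between members was not tested, so their separate values are uncertain. Kit, the receptor for stem cell factor, was at 3.15, 2.75 and 7.09 CPM with doxorubicin and 4.04, 2.02 and 1.92 CPM in control. Fcer1a, a chain of the IgE receptor shared with basophils, was at 0.109, 0.310 and 0.760 CPM with doxorubicin and 0.213, 0 and 0 CPM in control. Hdc, which makes histamine and is also used by neutrophils, was at 6.38, 10.8 and 33.9 CPM with doxorubicin and 20.7, 2.82 and 2.90 CPM in control. Markers of basophils and eosinophils were highest in the same library. Of 12 tested of 22, 9 were positive with a median of 0.31 and 0 were called, and 6 of the 12 were highest in doxorubicin replicate 3. Their list means were 0.69, 1.85 and 2.18 log2 CPM with doxorubicin and 1.82, 0.71 and 0.87 log2 CPM in control, which overlapped, and the median was 0.01 without doxorubicin replicate 3. Mcpt8 of basophils had 7, 0 and 11 counts with doxorubicin and 0, 2 and 4 in control, and Epx of eosinophils had 0 counts in all 6 libraries.

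**Figure D5:**
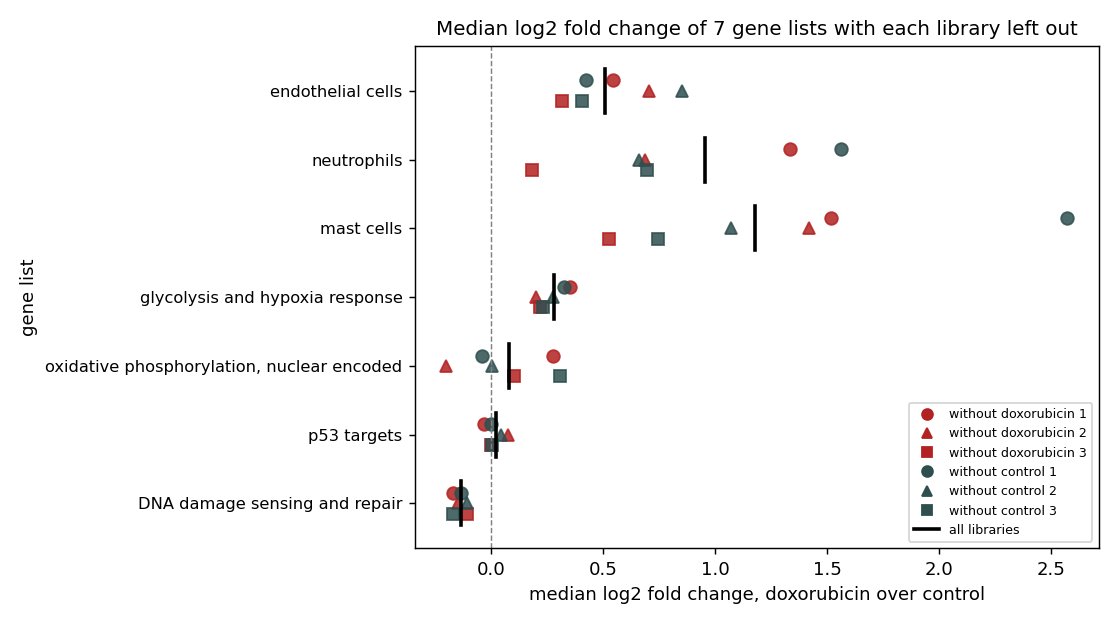
Median log2 fold change, doxorubicin over control (horizontal axis), of 7 gene lists with all libraries (black line) and with each library left out (red for a doxorubicin and dark for a control library, shape for the replicate). The neutrophil median ranges from 0.18 to 1.56 and the mast cell median from 0.53 to 2.57, whereas the p53 median stays between -0.03 and 0.08.

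The lymphocyte genes had the same leading library. The 26 T cell genes all had positive values, at a median of 1.43, and 24 of them were highest in doxorubicin replicate 3, as were 19 of 20 genes of NK and cytotoxic cells (median 1.48). A total of 4 T cell genes, Cd3d, Cd3g, Cd8a and Trbc2, and 1 NK gene, Klrg1, were called higher, against 0.36% of all genes, and all 5 overlapped between the groups. Of these, all but Cd8a were named after their values had been seen. The T cell median was 0.37 without that library. Cd8a and Pdcd1 were among the genes of largest fold change. Cd8a had 0.600, 4.68 and 15.6 CPM with doxorubicin and 1.9, 0.214 and 0.444 CPM in control, and Pdcd1 had 0.509, 4.35 and 12.5 CPM with doxorubicin and 1.59, 0.368 and 0.758 CPM in control. In both genes doxorubicin replicate 1 lay inside the control range, and the call was lost without control replicate 2, control replicate 3 or doxorubicin replicate 3, and for Cd8a also without doxorubicin replicate 2. Neutrophil, mast cell and T cell lists therefore shared a high doxorubicin replicate 3 and a low control replicate 2, and the part of cell mixture in these values was not tested.

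Many of the largest fold changes belonged to genes with few counts. Gm8810, a pseudogene on chromosome 17 (36064907 to 36067758), had 4740, 0 and 4155 counts with doxorubicin and 0 in each control library, at least 3120-fold higher over the group with control set to 3 counts. It was absent from doxorubicin replicate 2, and it had 80.0, 105 and 107 CPM with doxorubicin + ADU-S100. DESeq2 called it at an adjusted p of 0.00488, and edgeR did so only without doxorubicin replicate 2 (adjusted p = 0.000811). A pseudogene can share reads with a near-identical copy, so this value is uncertain. Gm44504, a readthrough gene on chromosome X that overlaps its neighbours, was at 0.109, 1.92 and 2.00 CPM with doxorubicin and 0.0886, 0.0613 and 0.111 CPM in control.

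The other genes with 0 counts in control were Zan, a sperm protein (47 counts over the doxorubicin group), 5430400D12Rik (39), Slc17a6, a neuronal glutamate transporter (96), Styxl1 (22), Gm19696 (23) and Krt14 (53), with bounds of at least 7.72-fold to 33.7-fold higher. Slc17a6 was at 0.0364, 0.369 and 1.24 CPM with doxorubicin, so most of its counts were in replicate 3. Krt14, a keratin of basal epidermis, was at 0.691, 0.291 and 0 CPM with doxorubicin. Krt5, its partner keratin, had 0.746, 0.213 and 0 CPM with doxorubicin and 0.0709, 0 and 0 CPM in control, and Krt1 of the upper epidermis had 0.855, 0.349 and 0 CPM with doxorubicin and 0, 0.0306 and 0 CPM in control. The part of skin cells in the call of Krt14 was not tested. Ccnjl had 37 counts with doxorubicin and 2 in control, a ratio of 19.5 (95% counting interval 5.02 to 167). 9130230L23Rik, Gm12216 and Lrrc14b completed the 15 largest increases, each with a doxorubicin mean under 0.3 CPM. Genes with 0 counts after doxorubicin were Adh1, an alcohol dehydrogenase (18 counts in control), Adam32 (34), Gm38137 (35) and Gm43403 (46), at least 5.70-fold to 14.6-fold lower. 5033417F24Rik had 3 counts with doxorubicin and 32 in control, a ratio of 0.099 (95% counting interval 0.019 to 0.315). Gm39443 and the X-linked lymphocyte genes Xlr3a and Xlr3c, near-identical copies whose reads cannot be assigned with certainty, were the other large decreases. These bounds and intervals cover counting error only.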

How the data were processed

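RNA of CD45+ cells was sequenced in 3 libraries per group. Per the labels, poly(A) RNA gave stranded libraries. The paper names TRIzol for RNA isolation, whereas the labels name an RNeasy Micro kit. The authors used Trimmomatic 0.38 for trimming, HISAT2 2.1.0 for alignment to mm10 and StringTie for counts per gene (2.1.3b in the submitters' processing notes). The deposited counts are whole numbers that were not normalized, for 45777 genes. The strand setting of the counting is not given in the sources used here, so overlapping genes of opposite strands may share reads.

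Columns were mapped to samples by name, and 0 columns were left over. Genes were kept by filterByExpr (16373), scaled by TMM and tested with edgeR 4.0.16 (quasi-likelihood, two-sided, R 4.3.3) with 1 mean per group over all 9 libraries. P-values were adjusted by Benjamini-Hochberg over all genes tested. Standard errors were derived from the F statistic. CPM used TMM-scaled library sizes, and log2 CPM a prior count of 2. Coordinates and promoters came from RefSeq GRCm38.p6, which matched 16336 genes. Depth was 50110494 to 61352118 counts per library, so counting error was small except for the lowest genes. The common biological coefficient of variation was 0.457, and 0 pairs of libraries were identical.

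The members and gene lists were chosen with earlier results of these data known, and lists are described by counts and medians without a test. Genes were named by rule, as the 15 higher and 10 lower genes of largest fold change at the study thresholds, the 4 smallest p and the 2 highest mean CPM of the lists described, set marker genes and DESeq2 calls. Of the genes so given, those that the description turns on are in the text, and others are marked as chosen after their values were seen. Some list members are not reported here by name. Alternatives were DESeq2 1.42.0, limma-voom (limma 3.58.1), RLE scaling, no filter, a filter at 1 CPM, a model of the 2 groups, the replicate number as a block, omission of mitochondrial and haemoglobin genes and omission of each library. A further 2 were added after the data were seen and concern the fibroblast mean. The tests were checked on simulated counts drawn for each gene separately. Shifts shared by many genes of a library were not part of that check.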

Additional observations from a re-analysis of the deposited data

Results flagged for a closer look

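A total of 7 list genes that were too low for the test had counts with doxorubicin above the 3 counts that a group at 0 allows, and 0 counts in every control library. Summed over the 3 doxorubicin libraries, these were 19 counts for Camp, the cathelicidin of neutrophils, 4 for Il4, the cytokine of basophils and T cells, and 5 for Prg2, a granule protein of eosinophils. Mrgprx2 had 24 counts, Trp73, a relative of p53, had 13, and the keratins Krt15 and Krt17 had 25 and 18. Camp had 16 of its counts in doxorubicin replicate 2, Krt15 had 21 in doxorubicin replicate 1 and all 13 counts of Trp73 were in doxorubicin replicate 3. The choice required 0 counts in control, so the shared direction of the 7 genes was set by it and is not a result. Elane, also untested, had 14 counts in control replicate 1 and 4 in doxorubicin replicate 3. The share of such genes among all untested genes is not given. No gene was compared for outliers within a group, since each group held 3 libraries.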

How the results depend on the processing

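The count at an adjusted p under 0.05 was 0 in every setting except DESeq2 (2) and the omission of doxorubicin replicate 2, with 0 to 1 over the omissions. The total of 74 called genes became 213 without the filter on low counts, 38 with CPM 1 or more in 3 libraries, 310 with limma-voom, 164 without the library of the highest fibroblast mean in each group and 163 with the fibroblast mean as a covariate. Higher genes were 141, 34 and 175 in the first 3 of these settings and 145 with the covariate. Lower genes were 72, 4 and 135, and 82 without the libraries of the highest fibroblast means. The omission of 1 library gave 44 to 211 genes in total, 17 to 152 higher and 13 to 99 lower. The median of the mast cell list was 2.34 with limma-voom and 0.53 to 2.57 over the omissions, against 1.18. The neutrophil, endothelial, p53, damage repair, glycolysis and nuclear respiration medians moved by less than the spread between replicates. By more than that moved the fibroblast median, to 1.39 without control replicate 2, the erythrocyte median, to 2.87 with limma-voom and 3.42 without control replicate 3, and the apoptosis median, to -0.07 without doxorubicin replicate 2 and 0.23 without doxorubicin replicate 1. The medians of skeletal muscle, keratinocytes and platelets, not given in the report, also did. The cause of these changes was not tested.

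Libraries of the same replicate number did not deviate alike from their group means. The correlation of the deviations of same-numbered doxorubicin and control libraries was -0.31, -0.60 and -0.17 for numbers 1 to 3. With 3 libraries a group that differ in stromal RNA, these values cannot exclude a batch shared by number. In a fit with a replicate block, the total was 54 genes, with 45 higher and 9 lower, of which 34 and 8 were among the calls without the block.

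The directions of some named genes turned, none of them called. Abcb1a was at 0.11 with limma-voom and 0.10 without the libraries of the highest fibroblast means, Arg1 at -0.14 with limma-voom, Ptprc at 0.019 with the covariate, and Gdf15 (-0.49) and Pcna (0.071) turned without the libraries of the highest fibroblast means. Trp53 was at 0.10, 0.0006 and 0.22 with limma-voom, without mitochondrial and haemoglobin genes and without the libraries of the highest fibroblast means. Over the omissions the log2 fold changes ran from -0.47 to 0.087 for Abcb1a, -0.44 to 0.98 for Arg1, -0.0445 to 0.67 for Atp5k, -1.66 to 0.0187 for COX1, -0.065 to 0.32 for Ccng1, -0.0112 to 1.21 for Csf3r, -0.35 to 3.87 for Cxcr2, -0.22 to 0.75 for Gdf15, -0.0378 to 2.57 for Hdc, -0.0425 to 0.13 for Lyz2, -0.0226 to 0.33 for Mdm2, -0.30 to 0.0429 for Pcna, -0.0374 to 1.08 for Phlda3, -0.27 to 0.18 for Ptprc, -0.19 to 2.98 for S100a9, -0.15 to 0.13 for Trp53 and -0.13 to 0.32 for Vegfa. With 3 libraries a group and a common coefficient of variation of 0.457, small differences could not be told from the spread.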

Other observations

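Genes induced by type I interferon were positive in 23 of 25, against 48.9% of all genes. Their median log2 fold change was 0.32, and 0 were called. Usp18, a brake on interferon signalling, was at 28.4, 35.4 and 50.6 CPM with doxorubicin and 29.0, 22.5 and 21.2 CPM in control. Irf7, a transcription factor of the response, was at 113, 189 and 304 CPM with doxorubicin and 151, 123 and 112 CPM in control. Usp18 had the highest log2 fold change of the list, 0.65, and Irf7 was also at 0.65. Both were chosen after their values were seen. Of the 25 genes, 12 were highest in doxorubicin replicate 3, 8 in control replicate 1 and 16 were lowest in control replicate 3. The median was 0.11 without doxorubicin replicate 3 and 0.60 without control replicate 1.

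Haemoglobin transcripts of red blood cells were present in several libraries. Hbb-bs was at 1.15, 3.01 and 6.34 CPM with doxorubicin and 0.443, 0.214 and 3.53 CPM in control, and Hba-a1 at 1.38, 2.62 and 4.20 CPM with doxorubicin and 0.301, 0.245 and 2.74 CPM in control. Hbb-bs and Hba-a1 were chosen after their values were seen. All 5 erythrocyte genes tested were positive, with a median of 1.32 that was 3.42 without control replicate 3 and 0.65 without doxorubicin replicate 3, and 0 were called. Among 20 monocyte genes 14 had positive values (median 0.32), and Ly6c1 (1.32) and Plac8 (1.37) were called higher, against 0.36% of all genes. Ly6c1 lost its call in 4 and Plac8 in 5 of the 6 omissions, and without doxorubicin replicate 3 they were at 0.80 and 0.68. Both were named after their values were seen. Medians were 0.30 for 14 genes of B and plasma cells, 0.33 for 19 genes of dendritic cells and -0.14 for 15 genes of pericytes and smooth muscle.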
